A study of Homo sapiens with 6 samples.

Results

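The olfactory receptor (OR) genes of human chromosome 11 were taken as all protein-coding genes there whose symbol is OR followed by a number, letters and a number. The rule found 171 genes. Of these, 168 lie on the primary chromosome 11 sequence of GRCh38, among 19862 protein-coding genes placed on the primary chromosomes. OR9G9, OR8U8 and OR8U9 are placed on another sequence and are not analysed here. Chromatin accessibility was read at these genes by ATAC-seq, in which a transposase inserts adapters into open DNA, in the NCI-H1703 line established from a lung squamous cell carcinoma. In 3 libraries the long non-coding RNA DLGAP1-AS2 had been silenced, and 3 libraries were controls. The silenced samples carry ASO in their titles, and no further treatment, time or dose is given in the labels. Each library started from 10000 to 50000 cells. All libraries come from 1 cell line, and nothing in the labels says that replicates were separate cultures, so p-values measure only the spread between these samples, which may be technical.

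OR genes encode G protein-coupled receptors that bind odorants. Each mature olfactory sensory neuron expresses a single OR allele, while the other OR genes of that neuron are held in compact heterochromatin. In most other cell types OR genes are silent. The genes lie in large tandem clusters, their coding sequence is usually a single exon, and class I receptors, the fish-like families OR51 to OR56, sit together in the cluster on the short arm that also surrounds the beta-globin genes. The remaining families are class II. In a squamous carcinoma line the genes are therefore a reference set for how often a peak is called at genes that are usually silent.

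The stretch of 250 bases before the gene start is shown for 4 members, to set the CpG content upstream of genes with a recurring peak beside that of genes with scattered calls. The sequences are from RefSeq on GRCh38.p14, 5′ to 3′ on the gene's strand, with each CpG dinucleotide in capitals. OR52K1 and OR52N2 had a peak near an end of the gene in all 6 libraries, while OR4B1 and OR8B3 had calls of height 3 to 5 in 3 and 2 libraries, at places that did not overlap. The stretches lie at chr11:4482396-4482645 (plus strand), chr11:5808674-5808923 (plus), chr11:48216560-48216809 (plus) and chr11:124399025-124399274 (minus). The OR8B3 start used by that table lies inside the longer gene span of RefSeq.
OR52K1: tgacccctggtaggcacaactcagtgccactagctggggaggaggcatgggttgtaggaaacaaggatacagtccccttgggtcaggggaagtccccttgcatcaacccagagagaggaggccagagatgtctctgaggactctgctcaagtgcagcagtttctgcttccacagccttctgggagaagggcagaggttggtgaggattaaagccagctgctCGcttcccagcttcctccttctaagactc
OR52N2: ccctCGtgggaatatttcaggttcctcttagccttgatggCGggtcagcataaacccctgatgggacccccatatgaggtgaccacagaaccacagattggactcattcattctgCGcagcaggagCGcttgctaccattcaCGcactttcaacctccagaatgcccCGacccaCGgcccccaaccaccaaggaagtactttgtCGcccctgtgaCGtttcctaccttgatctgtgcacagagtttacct
OR4B1: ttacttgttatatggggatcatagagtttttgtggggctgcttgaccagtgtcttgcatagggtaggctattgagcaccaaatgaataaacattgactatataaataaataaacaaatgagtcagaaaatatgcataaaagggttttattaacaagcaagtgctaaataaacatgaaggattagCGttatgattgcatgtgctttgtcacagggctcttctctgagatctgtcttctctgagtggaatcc
OR8B3: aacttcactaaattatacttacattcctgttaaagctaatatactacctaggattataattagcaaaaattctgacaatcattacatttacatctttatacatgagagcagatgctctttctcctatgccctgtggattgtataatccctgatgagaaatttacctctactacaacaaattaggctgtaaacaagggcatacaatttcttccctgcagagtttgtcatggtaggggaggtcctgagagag
The OR52N2 stretch holds 9 CpG and was overlapped, in part or whole, by a peak in all 6 libraries. The OR52K1 and OR4B1 stretches hold 1 CpG each, the OR8B3 stretch holds 0, and no peak in any library overlapped any of these.

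Only peaks on the autosomes and sex chromosomes were kept. Of these the lists hold between 91346 (control 2) and 170882 (control 1), with 3654 to 6736 on chromosome 11. The height of a peak is the authors' pileup, the largest number of fragments stacked over it, and the fold enrichment, p-value and false discovery rate (FDR) of a peak are the authors' values too. Library depth is not given, but the lowest background coverage that the height and fold of a peak imply was 0.369, 0.402 and 0.237 fragments in silenced 1 to 3 and 0.380, 0.464 and 0.372 in control 1 to 3. The control 2 list stands apart. Its lowest height is 3 and 2.46% of its peaks are lower than 4, against 48.1% to 52.1% in the other 5 lists, whose lowest height is 2. Counts that include weak peaks therefore rest on the list as well as on the cells, and they are given below also for heights of 4 or more. Of 10 squamous carcinoma markers, 3 (S100A2, SOX2 and PERP) had a peak at a gene end in all 6 libraries, DSC3 and KRT6A had none, and the keratin genes KRT5 and KRT14 had 1 weak call each. TP63 was called in 4 libraries, with heights of 2 and 3 in silenced 1 and 2 and of 2 and 5 in control 1 and 2. DSG3 was called in 2 libraries and PKP1 in 1. Of 6 markers of olfactory sensory neurons, GNAL, GNG13 and ADCY3 had a peak in all 6 libraries. OMP, the marker of mature olfactory neurons, had none, and CNGA2 and STOML3 had 1 weak call each. Of protein-coding genes of chromosome 11 other than OR genes, 56.8% had a peak at a gene end in all 6 libraries and 16.3% in none.

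Few OR genes of chromosome 11 had a peak. A gene was counted when the midpoint of a peak lay within 1 kb of either end of its span. In the silenced libraries 16, 17 and 7 of the 168 members had one, or 9.52%, 10.1% and 4.17%. In the controls 16, 4 and 11 did, or 9.52%, 2.38% and 6.55%. The groups overlapped throughout, and the lowest counts came from control 2 and silenced 3, the libraries with the shortest lists. The 95% Wilson interval, which covers counting error only, ran from 5.95% to 14.9% in silenced 1 and from 0.930% to 5.96% in control 2. Among the other 1129 protein-coding genes of chromosome 11 the share was 68.7%, 71.4% and 64.2% in the silenced libraries and 70.1%, 66.8% and 69.7% in the controls. The OR share was lower in 6 of 6 libraries, with a mean difference of −61.4 ± 1.97 percentage points (SD, n = 6). The two-sided exact sign-flip permutation test over libraries gave p = 0.0312, the smallest that 6 libraries allow, and an adjusted p of 0.0521 over the family of 5 within-library comparisons, so no comparison of this family passed 0.05 after adjustment.

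**Figure D1:**
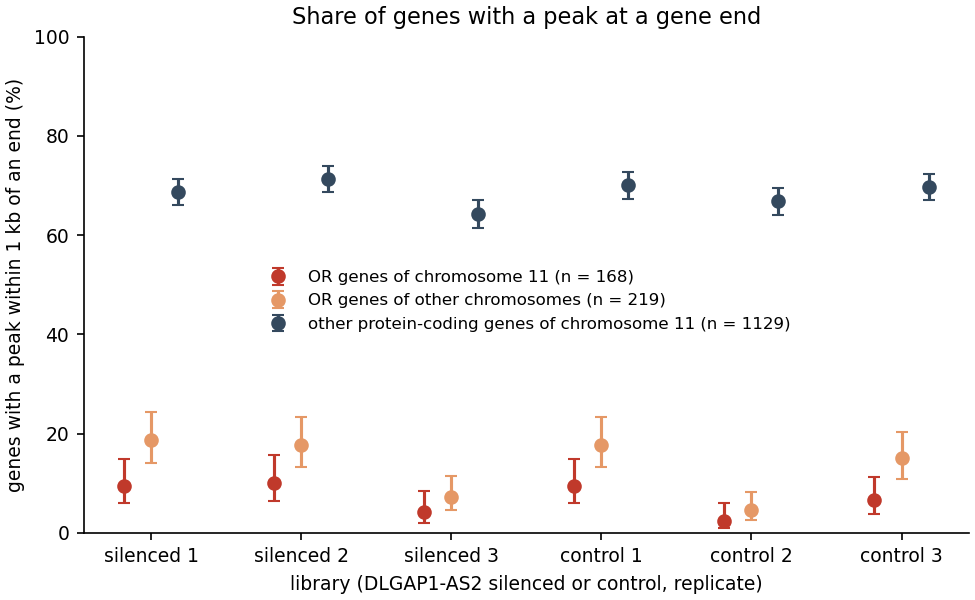
Share of genes with a peak midpoint at most 1 kb from an end (percent, y axis) in each library (x axis) for OR genes of chromosome 11 (red), OR genes of other chromosomes (orange) and other protein-coding genes of chromosome 11 (dark blue). Points are shares and bars are 95% Wilson intervals, and the OR genes of chromosome 11 lie between 2.38% and 10.1% while the other genes of the chromosome lie between 64.2% and 71.4%.

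The OR genes of other chromosomes, 219 by the same symbol rule, were called more often than those of chromosome 11. Their share was 18.7%, 17.8% and 7.31% in the silenced libraries and 17.8%, 4.57% and 15.1% in the controls, above the chromosome 11 share in 6 of 6 libraries. The difference was −6.50 ± 3.03 percentage points (SD, n = 6, two-sided exact sign-flip permutation p = 0.0312, adjusted p = 0.0521). With heights of 4 or more it was −1.72 percentage points (exact sign-flip permutation p = 0.0625).

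Silencing of DLGAP1-AS2 was the study's comparison, and the number of OR genes with a peak gave no difference beyond the spread between libraries. The mean was 13.3 ± 5.51 members in the silenced libraries and 10.3 ± 6.03 in the controls (SD, n = 3 each). The difference of 3 genes had a two-sided exact permutation p of 0.6, where 3 against 3 libraries cannot go below 0.1. Without control 2, the list with few weak peaks, the difference was −0.167 genes. For heights of 4 or more the counts were 9, 5 and 5 in the silenced libraries and 5, 4 and 3 in the controls. The groups overlapped at 5 genes, and the means of 6.33 ± 2.31 and 4 ± 1 (SD, n = 3 each) differed by 2.33 genes (two-sided exact permutation p = 0.3). Without silenced 1, which holds the 9, the difference was 1 gene, and with windows of 500 bases it was 0.667 genes. Both p-values were 0.6 after adjustment over these comparisons, and neither shows that the groups are alike.

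No OR gene separated the groups completely. Over all protein-coding genes, 17 (0.0856%) were called in every silenced library while no control had them, and 39 (0.196%) had the reverse pattern. The OR genes had 0 of 168 in either direction, where these background shares come to fewer than 1 gene. In all, 18 members (10.7%) had a peak only in silenced libraries, 9 (5.36%) only in controls and 10 (5.95%) in both, against 6.04%, 5.71% and 72.3% of all protein-coding genes. Without control 2 the members' counts were again 18, 9 and 10, against 7.27%, 4.97% and 71.1% of all genes. The members' counts could not change, because control 2 had peaks only at members called in all 6 libraries. At height 4 or more they were 7 (4.17%), 1 (0.595%) and 4 (2.38%), against 3.06%, 4.86% and 68.1% of all genes. OR10G6, OR56B2, OR10D3 and OR5M11 (2.38% of members, against 1.13% of all genes) had a peak in 2 silenced libraries and no control. OR1S2, OR4C12 and OR8D1 (1.79%, against 1.13%) had a peak in 2 controls and no silenced library. These patterns carry no test, and the part of control 2's few weak peaks in the shares of all genes was not tested.

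The peaks at OR gene ends were mostly weak. Across the 6 lists 77 peaks lay at members, with heights from 2 to 15 and a median of 3, and 46 of them (59.7%) were lower than 4. An FDR of 0.05 or less was reached by 32 of the 77, and an FDR of 1e-05 or less by 13. All of these 13 lay at the 4 members called in all 6 libraries. At the other members there were 49 peaks of height 2 to 5, 40 of them (81.6%) lower than 4 and 39 with an FDR above 0.05. In 41 of these 49 no other library had an overlapping peak, and 32 were 200 bases long, the shortest length in these calls.

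When a greater height was required, OR genes dropped out much faster than other genes. The mean share of OR genes over the 6 libraries was 7.04% with any peak, 3.08% at height 4 or more, 1.69% at 6 or more, 0.893% at 10 or more and 0% at 20 or more. For the other genes of the chromosome it was 68.5%, 64.6%, 60.6%, 53.3% and 40.7% at the same steps. The share of called genes that had only peaks lower than 4 was 43.8%, 70.6% and 28.6% for OR genes in the silenced libraries and 68.8%, 0% and 72.7% in the controls. For other genes of the chromosome it was 0% in control 2 and 5.34% to 9.38% in the remaining lists. As a share of all genes, weak-only genes were a few percent of both sets. They made up 4.17%, 7.14%, 1.19%, 6.55%, 0% and 4.76% of OR genes (silenced 1 to 3, then control 1 to 3) and 4.25%, 5.05%, 6.02%, 4.34%, 0% and 3.72% of the other genes.

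Weak peaks were also counted per length of window. The joined windows around OR gene ends cover 0.572 Mb and held 16, 17 and 7 peaks in the silenced libraries and 19, 4 and 14 in the controls. Peaks lower than 4 stood at 12.2, 21.0 and 3.50 per Mb in the silenced libraries and 24.5, 0 and 19.2 in the controls. In the 128 Mb of the chromosome more than 1 kb from any protein-coding or lncRNA gene end, which include the centromere, they stood at 22.1, 22.4, 16.4, 23.9, 0.470 and 21.4 per Mb. At the ends of the other protein-coding genes they stood at 17.4, 21.9, 25.1, 18.2, 0.249 and 18.9 per Mb. Silenced 3 is the library in which the OR windows were lowest against both backgrounds, and control 1 the one in which they were above both. The difference from the ground outside gene ends was −4.39 ± 5.58 peaks per Mb (SD, n = 6, two-sided exact sign-flip permutation p = 0.0938, adjusted p = 0.141 over 6 added comparisons), with libraries ranging from −12.9 to 0.539. None of the 6 added comparisons, here and below, had been planned. The difference from other gene ends was −3.56 ± 9.59 (exact sign-flip permutation p = 0.562) and was 0.0508 without silenced 3.

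Tall peaks separated the sets. Peaks of height 4 or more stood at 15.7, 8.74 and 8.74 per Mb of OR window in the silenced libraries and at 8.74, 6.99 and 5.24 in the controls. At the ends of other genes they stood at 203, 207 and 175 per Mb in the silenced libraries and at 201, 209 and 200 in the controls. The sets did not overlap, and the difference was −190 ± 12.7 peaks per Mb (SD, n = 6, lower in 6 of 6 libraries, two-sided exact sign-flip permutation p = 0.0312, adjusted p = 0.0625 over the added comparisons).

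**Figure D2:**
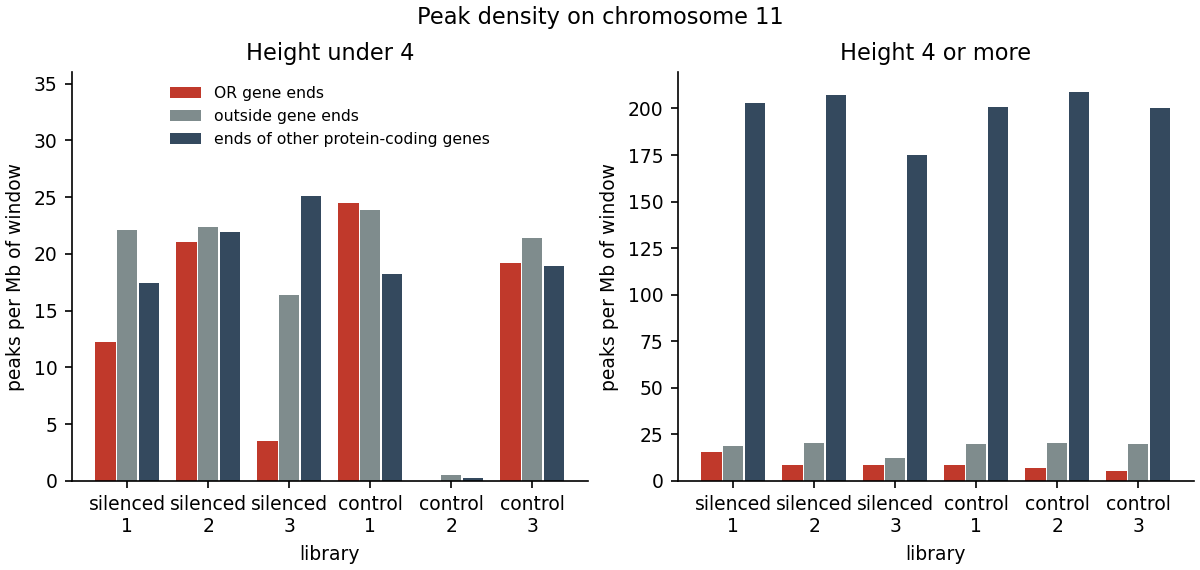
Peaks per Mb of window (y axis) in each library (x axis) for peaks lower than 4 (left) and of height 4 or more (right). Bars show OR gene ends (red), chromosome 11 outside gene ends (grey) and ends of other protein-coding genes (dark blue): for weak peaks the 3 kinds of place lie between 0 and 25.1 per Mb, while for tall peaks other gene ends reach 175 to 209 and OR gene ends 5.24 to 15.7.

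Counting all heights together, OR windows held fewer peaks per Mb than the chromosome outside gene ends. The values were 28.0, 29.7 and 12.2 against 41.0, 42.7 and 28.8 in the silenced libraries, and 33.2, 6.99 and 24.5 against 44.0, 20.8 and 41.3 in the controls. The log2 ratio was −0.84 ± 0.46 (SD, n = 6, below 0 in 6 of 6, two-sided exact sign-flip permutation p = 0.0312, adjusted p = 0.0521). Against the rest of the OR clusters, a background chosen after the data were seen, the log2 ratio was 0.03 (exact sign-flip permutation p = 0.688). With windows of 500 bases the log2 ratio was −0.59 and the p 0.0625, so the call at an unadjusted 0.05 was lost (exact sign-flip permutation). The share of peaks of height 4 or more was 56.2%, 29.4% and 71.4% in OR windows in the silenced libraries and 26.3%, 100% and 21.4% in the controls, against 43.0% to 97.7% outside gene ends. The difference of −3.91 ± 21.2 percentage points lay within its spread (n = 6, exact sign-flip permutation p = 0.688).

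Peaks at OR genes also sat on the lowest background more often. A local background equal to the lowest of its library, within 0.005 fragments, was implied for 75.0%, 88.2% and 71.4% of OR peaks in the silenced libraries and for 89.5%, 50.0% and 71.4% in the controls. Outside gene ends the shares were 52.8%, 62.4%, 31.6%, 58.6%, 21.4% and 53.5%. The difference was 27.5 ± 7.57 percentage points, higher in 6 of 6 libraries (SD, two-sided exact sign-flip permutation p = 0.0312, adjusted p = 0.0625 over the added comparisons).

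Recurrence across libraries left most members without a peak, some with scattered calls and 4 genes called throughout. No peak was called in any library at 131 members (78.0%), in 1 library at 20, in 2 at 12, in 3 at 1, in 4 or 5 at 0 and in all 6 at 4 (2.38%). Other genes of the chromosome showed the opposite balance, with 184 (16.3%) never called and 641 (56.8%) called in all 6. Of the 13 members called in 2 or 3 libraries, 9 had peaks at places that did not overlap between libraries. Overlapping peaks were joined into regions, of which 52 lay at OR gene ends. Of these, 43 (82.7%) came from 1 library and 4 (7.69%) from all 6. On the chromosome outside gene ends, 75.3% of 16763 regions came from 1 library and 5.97% from all 6. At other gene ends 35.5% of 1333 regions came from 1 library and 43.7% from all 6.

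**Figure D3:**
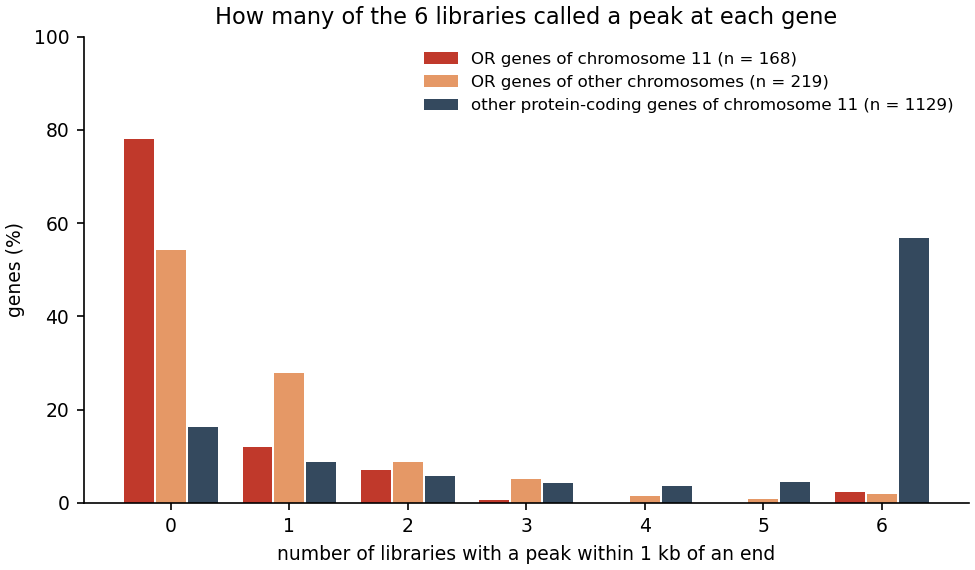
Share of genes (percent, y axis) by the number of libraries that called them (x axis) for OR genes of chromosome 11 (red), OR genes of other chromosomes (orange) and other protein-coding genes of chromosome 11 (dark blue). OR genes of chromosome 11 stand mostly at 0 libraries (78.0%) and other genes at 6 (56.8%).

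OR52K1, a class I receptor gene at chr11:4482646-4493497 on the plus strand, had the tallest peak of the set. Its height was 12, 15 and 10 in the silenced libraries and 9, 15 and 10 in the controls, so the groups overlapped. The peaks joined to chr11:4493055-4493599, and their midpoints lay 118 to 181 bases inside the 3′ end of the span, far from the start whose upstream sequence is printed above. Fold enrichment ran from 7.25 to 9.88.

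OR4S1, a class II gene at chr11:48306223-48307152, had heights of 4, 10 and 6 in the silenced libraries and 10, 12 and 3 in the controls. The highest and the lowest value were both controls. The joined peak, chr11:48307584-48308127, lay outside the gene, 681 to 820 bases beyond the higher end of its span.

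OR51D1, a class I gene at chr11:4637477-4643060, had heights of 8, 6 and 4 in the silenced libraries and 6, 10 and 6 in the controls. Its joined peak, chr11:4636914-4637411, lay 280 to 439 bases outside the lower end of the span. The group ranges overlapped.

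OR52N2, a class I gene at chr11:5808924-5821483 on the plus strand, had its recurring peak directly upstream of its start. For OR51D1 and OR4S1 no strand is given here, so their peaks cannot be placed upstream or downstream. Heights were 5, 3 and 5 in the silenced libraries and 8, 8 and 4 in the controls, overlapping between groups. The joined peak, chr11:5808440-5808958, had midpoints 203 to 329 bases before the start. In 5 libraries the peak ended between positions 5808695 and 5808769, in the outer part of the stretch printed above, and in control 3 it covered all of that stretch. In silenced 2, where the height was 3, the FDR was 0.112, and in the library with the best value it was 1.50e-07.

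The rank of these 4 regions among all regions did not pass a test between groups. Regions called in all 6 lists, 37284 genome-wide, were ranked by fold enrichment within each list, ranks were converted to normal scores, and limma was fitted over all of them. At an adjusted p under 0.05, 0 regions (0%) differed, 1746 had an unadjusted p under 0.05, and the same fit on ranks of height gave 0 and 1617. The silenced minus control score was 0.30 (SE 0.26, limma adjusted p = 0.965) at OR52K1, −0.02 (SE 0.55, adjusted p = 1) at OR4S1, −0.06 (SE 0.39, adjusted p = 0.993) at OR51D1 and −0.44 (SE 0.51, adjusted p = 0.967) at OR52N2. By mean score the regions stood at the 58.7th, 21.9th, 23.1st and 10.6th percentile of all regions called in the 6 lists. OR52K1 was therefore in the upper part of recurring regions, and the other 3 in the lower part.

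The remaining named members had no more than 3 libraries with a peak. OR4B1, a class II gene at chr11:48216810-48217739, had a height of 3 in silenced 2, control 1 and control 3, at 3 places that did not overlap. OR10G6 had a height of 4 in silenced 1 and silenced 3, again at different places. OR8B3 had 5 in silenced 1 and 3 in control 3, at opposite ends of its span. OR56B2 had 4 and 3 in silenced 1 and silenced 2, and these peaks overlapped and joined to chr11:5760321-5760614. OR52W1 had 4 in silenced 1 and 3 in control 1. OR10D3 had 3 in silenced 1 and silenced 2 at places that did not overlap, and OR1S2 and OR4C12 had 3 in control 1 and control 3, overlapping only at OR4C12. Without the 4 genes called in all 6 libraries, 12, 13 and 3 members were left with a peak in the silenced libraries and 12, 0 and 7 in the controls. At height 4 or more 5, 2 and 1 were left in the silenced libraries and 1, 0 and 0 in the controls. Control 2, with few weak peaks in its list, thus had peaks at the 4 recurring genes and at no other member.

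**Figure D4:**
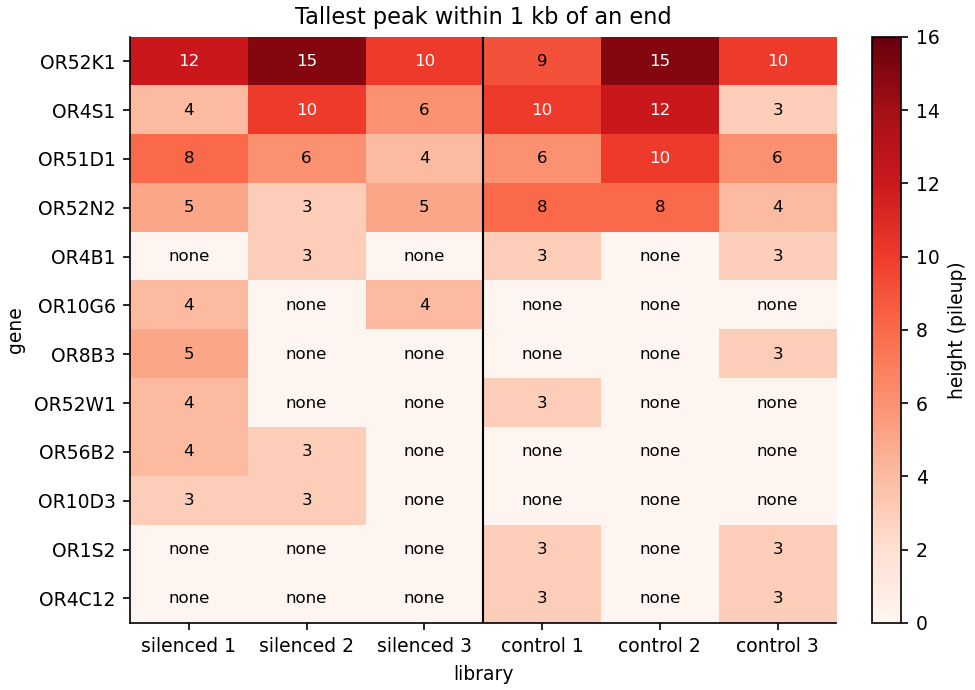
Height (pileup, colour and number) of the tallest peak within 1 kb of an end in each library (x axis) for the 12 members with most libraries called (y axis). The first 4 genes have a peak in all 6 libraries, with heights of 3 to 15, and below them heights are 3 to 5 in 2 or 3 libraries.

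Class I members, 55 genes, had a slightly larger share with a peak than the 113 class II members in 5 of 6 libraries, a difference that missed the threshold. Their share was 10.9%, 10.9% and 5.45% in the silenced libraries and 9.09%, 5.45% and 7.27% in the controls, against 8.85%, 9.73% and 3.54% and then 9.73%, 0.885% and 6.19% for class II. The difference of 1.69 ± 1.71 percentage points (SD, n = 6) was above 0 in 5 of 6 libraries (two-sided exact sign-flip permutation p = 0.0625, adjusted p = 0.0781). For heights of 4 or more it was 4.44 percentage points and above 0 in every library (exact sign-flip permutation p = 0.0312). This count rests largely on the same genes, as 3 of the 4 genes called in all libraries are class I. OR52K1 and OR51D1 reached height 4 in every library, and OR52N2 in every library but silenced 2. The p-value therefore does not measure a spread between genes and cannot show a difference between the classes. Counted over any library the order was the other way round, with 10 class I members (18.2%) and 27 class II members (23.9%) called at least once. Of 92 members with a span under 2 kb, 22 (23.9%) had a peak in any library and 1 in all 6. Of 76 longer ones, 15 (19.7%) had a peak in any library and 3 in all 6. The difference by span was not tested.

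The members fall into 7 groups when neighbours no more than 1 Mb apart are joined. The short-arm cluster at chr11:4367263-7941708 holds 67 members, all class I genes among them, and 12 of these had a peak in any library, 3 in all 6. The largest class II cluster, chr11:54603069-56989843, holds 48 members, of which 4 were ever called and none in all 6. It was the emptiest of the large clusters, with 10.5, 8.38 and 5.45 peaks per Mb in the silenced libraries and 7.54, 0.838 and 5.03 in the controls, where the chromosome outside the clusters had 28.1 to 51.3. The cluster at chr11:123753580-124571374 holds 22 members, of which 10 were ever called and none in all 6. Its density was 46.5, 52.6 and 30.6 peaks per Mb in the silenced libraries and 45.2, 11 and 52.6 in the controls, close to that of the chromosome outside the clusters except in control 2. At chr11:48216810-48489722, 4 of 7 members were ever called, and at chr11:58023881-59713845 6 of 21. The latter cluster had 54.4, 58.0 and 36.1 peaks per Mb in the silenced libraries and 51.5, 27.2 and 50.9 in the controls, at or above the chromosome outside the clusters (48.3, 50.2, 35.7, 51.3, 28.1 and 48.6) except in control 2. The short-arm cluster, with 13.7 to 30.5 per Mb, was below it in every library, so low density was not common to all clusters. A pair of genes at chr11:49952391-49982535 had 1 gene called, and OR2AT4, which stands alone, had none. The differences between clusters were not tested, and those described were picked with their values known.

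Genes of other kinds inside the clusters were open far more often than the OR genes around them. There are 61 such protein-coding genes, and 57.4%, 62.3% and 52.5% of them had a peak in the silenced libraries and 54.1%, 47.5% and 55.7% in the controls. The mean difference was −47.9 percentage points for OR genes against these genes (± 2.78, SD, n = 6, lower in 6 of 6, two-sided exact sign-flip permutation p = 0.0312, adjusted p = 0.0625 over the added comparisons). In all 6 libraries 27 of the 61 (44.3%) were called, and 18 in none. OSBP, which encodes an oxysterol-binding protein, had heights of 126, 108 and 84 in the silenced libraries and 118, 129 and 108 in the controls. CNGA4, a subunit of the olfactory cyclic nucleotide-gated channel, and its neighbour FHIP1B share a peak of height 84, 86 and 72 in the silenced libraries and 91, 93 and 119 in the controls. FAM111B, and the neighbours LPXN and ZFP91, had mean heights of 53.7 and 52.0. The beta-globin genes, which are read in red blood cell precursors, also had few peaks. HBE1, HBG1 and HBG2 had no peak, HBB had 1 of height 3 and HBD had 1 of height 2.

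Around gene starts the OR genes lacked the peak seen at other genes. Where RefSeq gives a promoter and hence the strand, for 135 members, there were 0.0284 ± 0.0184 peaks per gene within 500 bases of the start (SD, n = 6), with 0.00741 to 0.0593 in single libraries. For 818 other genes of the chromosome there were 0.681 ± 0.0120, with 0.658 to 0.693. At 4 to 5 kb from the start the means were 0.0160 per gene and kb for OR genes and 0.0447 for other genes. Of 50 peaks at members with a known strand, 32 lay within 1 kb of the 5′ end. These peaks were chosen for lying within 1 kb of either end, and 92 of the 168 members have spans under 2 kb. The count therefore cannot show a preference for the 5′ end.

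**Figure D5:**
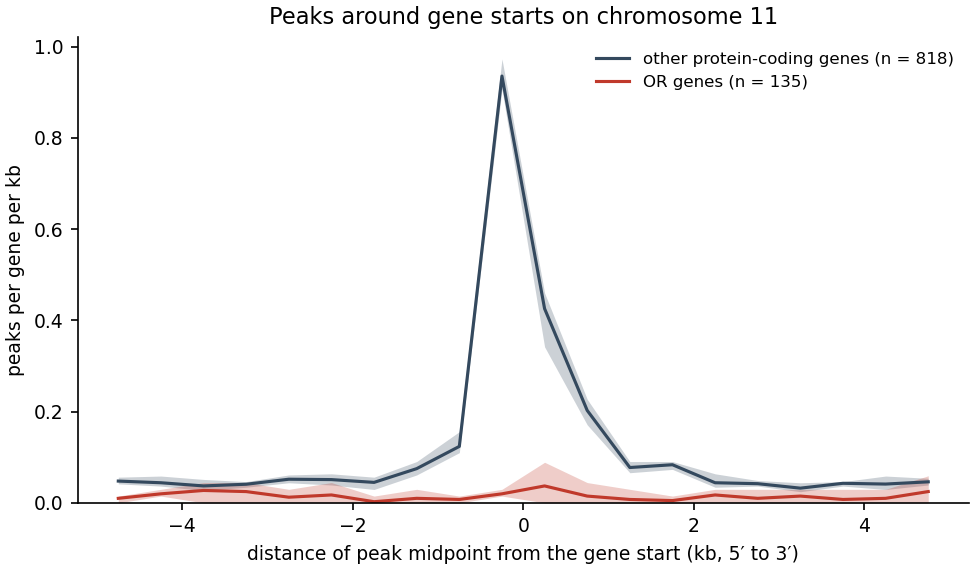
Peaks per gene per kb (y axis) by distance of the peak midpoint from the gene start (x axis, kb, bins of 500 bases) for 135 OR genes (red) and 818 other protein-coding genes (dark blue) of chromosome 11. Lines are means of 6 libraries and bands run from the lowest to the highest library, and the other genes rise sharply at the start where the OR genes stay low.

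The OR promoters differ from others in sequence as well. In the 300 bases from 250 before to 50 after the start, the 135 OR promoters had a median of 1 CpG and 37.0% G+C, and 109 of them (80.7%) had 2 CpG or fewer. The 818 other promoters of the chromosome had a median of 22 CpG and 62.7% G+C, and 9.17% had 2 or fewer. OR52N2 had 14 CpG in this window, the most of the 135, and the next was OR51S1 with 6. The 24 promoters of members called in 1 to 3 libraries had a median of 1 CpG (0 to 3), as had the 109 of members never called (0 to 6). OR52K1, the other member called in all libraries that has a promoter entry, had 2.

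Short motifs were searched on both strands of the same window. TAATTA, the core bound by homeodomain proteins such as LHX2 and EMX2, was in 24.4% of OR promoters, 3.06% of the other promoters of the chromosome and 3.34% of all 15842 protein-coding promoters. TATAAA, the TATA box, was in 35.6%, 9.05% and 9.63%. CCCNNGGG, the core of the site named after Olf-1 and EBF proteins, was in 8.15%, 22.9% and 21.6%. TGACTCA, the AP-1 site, was in 2.96%, 3.79% and 3.66%, and GGAATG, the TEAD site, in 16.3%, 12% and 11.7%. Both AT-only motifs were more common and the G+C-rich one less common in OR promoters, whose G+C content is lower. In the stretches printed above, OR8B3 has TAATTA with its outermost base 194 bases before the start, TATAAA at 156 and GGAATG at 229. OR4B1 has TATAAA at 151 and TGACTCA at 133, OR52K1 has CCCNNGGG at 176, and OR52N2 has none of these motifs.

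Among genes that serve OR signalling in olfactory neurons, the share with a peak in all 6 libraries was near that of other genes of chromosome 11. Of 19 genes for signal transduction and receptor transport, 10 had a peak in all 6 libraries, 8 in 1 to 5 and OMP in none. Among the non-OR genes of chromosome 11, 56.8% had a peak in all 6 and 16.3% in none. The lists named here were not tested against these shares, and most of their genes lie on other chromosomes. CNGA4 had a mean height of 90.8, at the peak it shares with its neighbour FHIP1B. RIC8B, an exchange factor for the olfactory G protein, had 72.7. The receptor transport genes RTP1 and RTP2 and the channel subunit CNGA2 were called in 1 library each. Of 10 regulators of OR choice, 8 had a peak in all 6, with a mean height of 106 at EIF2AK3, which encodes the kinase PERK, and 64.7 at LHX2. ATF5 was called in 5 libraries and EBF4 in 4. None of the genes in these lists separated the groups completely, and limma called 0 of their regions at an adjusted p under 0.05. An unadjusted p under 0.05 was met at KDM1A, which encodes the demethylase LSD1 (score difference −0.65, limma adjusted p = 0.963) and at EBF3 (−0.78, limma adjusted p = 0.963).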

How the data were processed

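ATAC-seq was measured in 6 libraries of NCI-H1703 cells, and the deposited files are 1 peak list per library. Per the submitters' processing notes, Trimmomatic 0.36, Bowtie2 2.2.6, Picard 2.8.2, MACS2 2.1.1 and bedtools 2.25.0 were used with GRCh38. Their settings, the handling of reads that match several near-identical OR genes and any filter on such reads are not given in the sources used here, and the effect on the counts was not tested. Per the file headers, each deposited peak has a fold enrichment (a ratio to local background), a p-value with its FDR, and a pileup signal, called height here. Depth is unknown, so intervals cover counting error only.

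Gene spans came from the RefSeq table for GRCh38.p14, and promoter sequences, which 135 of the 168 members have, from RefSeq on the same build. A gene counted as called with a peak midpoint within 1 kb of either end. Shares and densities were compared with exact permutation or sign-flip tests over libraries, two-sided, with Benjamini-Hochberg adjustment within families, in Python 3.11.15 with scipy 1.17.1. Ranks were fitted with limma 3.58.1 in R 4.3.3 and tested on simulated data. Peaks overlapping by 1 base or more were joined into regions. Alternatives were an FDR of 1e-05, a height of 4, equal list sizes (91346 peaks), windows of 500 bases or 2 kb, overlap in place of midpoint, and each library left out.

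The members and lists were chosen with earlier results of these data known. Named members are the 12 with most libraries called, then the greatest mean height. The other genes named are the 6 highest inside clusters and, by the rule, at most 4 per list, the most and the least often called. More genes of each list than these are named, and these, with OR2AT4, OR51S1, OR5M11 and OR8D1, were picked after their values were seen. Whether equal replicate numbers mark paired samples is not known. Deviations of the normal scores from their group mean correlated at −0.00196, 0.00238 and −0.00829 between silenced and control libraries of replicates 1 to 3. No pairing was seen in these scores, which cannot exclude one.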

Additional observations from a re-analysis of the deposited data

How the results depend on the processing

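The lower share of OR genes against other genes of the chromosome and the absence of rank calls held their direction and side of the threshold under each full-library setting tried. Sides of 0.05 in this section are those of unadjusted p-values, except for the rank calls. After adjustment, made in the main setting only, no within-library comparison passed 0.05. Leaving out a library leaves 5, whose smallest p is 0.0625, so the within-library comparisons cannot pass then. The difference from other genes ran from −61.9 to −60.8, from OR genes elsewhere from −7.37 to −5.96, class I minus class II from 1.12 to 2.16, the log2 density ratio from −0.929 to −0.695, the share of tall peaks from −10.4 to 0.650 (without control 3), tall peaks per Mb from −195 to −188, lowest background from 25.1 to 29.5, other genes in clusters from −48.5 to −47.0, weak peaks against the ground outside from −5.37 to −2.68 and against other gene ends from −5.54 to 0.0508. Silenced minus control ran from −0.167 (without control 2) to 6.17 (without silenced 3) genes with a peak, and from 1 to 3 at height 4 or more. At an FDR of 1e-05 it was −1 (exact permutation p = 0.5). With the replicate block (3 pairs, smallest p 0.25) the differences stayed 3 and 2.33, with exact p = 1 and 0.25, and limma with the block called 0 regions, with 1770 at an unadjusted p under 0.05. Against OR genes elsewhere the difference missed 0.05 at an FDR of 1e-05 (−0.765), at height 4 (−1.72), with equal lists (−1.85) and with 500 bases (−2.73). Class I minus class II passed an unadjusted 0.05 at 2.59, 4.44 and 3.60 under the same 3 choices of peaks. The log2 density ratio was −0.591 with 500 bases, which loses the call (p = 0.0625, exact sign-flip permutation), and 0.0325 against the rest of the OR clusters, and the difference in weak peaks from the ground outside gene ends was −5.73 per Mb with 2 kb, which passes 0.05 (exact sign-flip permutation p = 0.0312). Protein-coding genes called in all 3 silenced libraries and no control numbered 5 at an FDR of 1e-05 and 5 at height 4, against 17. The reverse pattern numbered 44 and 44, against 39. The cause of these changes was not tested. Background coverage under 1 fragment, and an FDR above 0.05 at 45 of the 77 peaks, limit what the weak peaks can show.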

Other observations

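OR pseudogenes of chromosome 11, 195 in number and defined after the data were seen, were also seldom called. Their share with a peak was 7.18%, 7.69% and 4.10% in the silenced libraries and 7.18%, 2.56% and 7.69% in the controls. OR genes minus pseudogenes was 0.975 ± 1.58 percentage points (SD, n = 6, above 0 in 4 of 6 libraries, two-sided exact sign-flip permutation p = 0.219, adjusted p = 0.263 over the added comparisons), with libraries from −1.14 to 2.43. No peak was called in any library at 150 pseudogenes, and 1, OR8Q1P, had a peak in all 6, with heights of 7, 2 and 4 in the silenced libraries and 8, 6 and 4 in the controls. OR51AB1P, in the class I cluster, had heights of 12 and 10 in silenced 1 and silenced 2 and of 6 in control 1 and control 3, and no peak in silenced 3 and control 2.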
